A study of Mus musculus with 15 samples.

Results

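The mitochondrial ribosomal proteins were followed in regulatory T cells (Tregs) of mouse skin and lymph node. The members were the genes of the deposited count table whose symbol is Mrpl or Mrps followed only by digits, which gave 74 of 24015 genes. By role, 49 were placed in the large subunit, 24 in the small subunit, and 1, Mrps36, is named for the small subunit but is not a core component of it. All 74 passed the filter on low counts, as did 13578 genes in all, and the smallest count of any member in any library was 84.

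Mitochondria keep a ribosome of their own, which translates the few proteins encoded by mitochondrial DNA, all of them subunits of the respiratory chain and ATP synthase. Its RNAs come from mitochondrial DNA, but every one of its proteins is encoded in the nucleus, made in the cytosol and imported. Many of the proteins have a counterpart in the bacterial ribosome, and the others are particular to mitochondria.

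Tregs were sorted as CD45+CD3+CD4+YFP+ cells from C57BL/6 mice and 15 libraries of total RNA were made, 3 in each of 5 groups. All groups carried Foxp3 cre-eyfp, so that the Foxp3 locus, which marks Tregs, drives both the Cre recombinase and the yellow fluorescent protein used for the sort. Wild-type (WT) mice carried nothing further, and conditional knockout (cKO) mice also carried Rora fl/fl, floxed alleles of the nuclear receptor gene Rora. The groups were WT lymph node (LN), WT untreated skin, cKO untreated skin, WT skin treated with MC903 and cKO skin treated with MC903. Calcipotriol, here MC903, activates the vitamin D receptor and causes an allergic type of skin inflammation. It was painted on ears in ethanol for 4 applications, with a day between them. Untreated skin was dorsal skin together with ears, whereas MC903-treated skin was ears alone, so treatment and site cannot be told apart. Skin was digested for 90 minutes with Liberase TL and DNAse, and axillary LN were homogenised with no digestion stated, so tissue and digestion cannot be told apart either. The titles call the samples biological replicates without naming animals, and p-values measure the spread between these samples only.

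The libraries held 19.8 to 27.7 M counts each. Rora, the targeted gene, was at 1327 to 1510 CPM (counts per M counts of the scaled library) in WT untreated skin, 822 to 1199 in cKO untreated skin, 739 to 813 in WT MC903 skin, 473 to 632 in cKO MC903 skin and 52.8 to 66.6 in LN. The count table does not separate the floxed exon from the others, so these gene counts are only a partial check of the deletion. All 7 Treg markers were detected, and Foxp3 itself was at 16.2 to 41.8 CPM in LN and 110 to 202 in skin. Not every marker of the list ran this way. Cd3e was at 1318 to 1661 CPM in LN and 772 to 1090 in skin. Cd4 overlapped, at 407 to 452 CPM in LN and 230 to 438 in skin. Transcripts of other cells were present in every library. Keratinocyte markers summed to 275 to 643 CPM in WT untreated skin, 230 to 364 in cKO untreated skin, 95.7 to 358 in WT MC903 skin, 47.8 to 173 in cKO MC903 skin and 15.1 to 17.3 in LN, so they moved with tissue and were lower under MC903 in cKO. B cell markers summed to 167, 190 and 584 CPM in LN, the last in replicate 3, and to 6.78 to 20.5 in skin. Macrophage, dendritic and Langerhans cell markers were at 459 CPM or more in every library, with the most, 2190, in LN replicate 3. In cKO untreated skin, replicate 1 held 1570 CPM of these, and replicate 3 of each MC903 group held the most fibroblast and endothelial transcripts, 401 CPM in WT and 500 in cKO. The part of these transcripts in the results was not tested. Counts and medians without 4 libraries (LN replicate 3, cKO untreated replicate 1 and replicate 3 of each MC903 group) are given beside each comparison of 2 groups. No WT untreated skin library was among the 4. In that group, replicate 1 held the most keratinocyte transcripts of any library, 643 CPM. Its replicate 3 held 1174 CPM of macrophage, dendritic and Langerhans cell markers. For WT untreated skin against LN, these runs therefore left out only LN replicate 3 of the compared libraries.

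Promoters of the members are shown first, because the members moved largely together between tissues. RefSeq promoters (GRCm38.p6, 250 bases before to 50 after the start) were given for 65 of the 74 members, and 32851 promoters were searched in all. The authors used the mm9 build, so these coordinates belong to the reference and not to the count table. The sequences are of the 2 members with the largest fall in skin against LN, Mrpl10 and Mrps27, the 2 with the largest rise, Mrps6 and Mrps7, and the member with the largest rise under MC903 in cKO skin, Mrpl52, among members with a promoter. Capitals mark matches on either strand to CCGGAAG, the site of ETS factors such as GABP, to the NRF1 site (GCGCA, any base, GCGC), or to AANATGGCG, the site of YY1. These are factors known for driving nuclear genes of mitochondrial proteins.

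The promoters, each on the plus strand, were Mrpl10 at chr11:97041332-97041631, Mrps27 at chr13:99344536-99344835, Mrps6 at chr16:92058086-92058385, Mrps7 at chr11:115603890-115604189 and Mrpl52 at chr14:54426659-54426958.
Mrpl10: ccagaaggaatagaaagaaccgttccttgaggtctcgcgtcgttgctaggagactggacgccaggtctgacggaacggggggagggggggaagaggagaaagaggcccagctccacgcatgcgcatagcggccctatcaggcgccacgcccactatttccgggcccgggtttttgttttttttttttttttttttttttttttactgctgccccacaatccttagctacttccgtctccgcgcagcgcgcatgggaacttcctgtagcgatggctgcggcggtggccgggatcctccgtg
Mrps27: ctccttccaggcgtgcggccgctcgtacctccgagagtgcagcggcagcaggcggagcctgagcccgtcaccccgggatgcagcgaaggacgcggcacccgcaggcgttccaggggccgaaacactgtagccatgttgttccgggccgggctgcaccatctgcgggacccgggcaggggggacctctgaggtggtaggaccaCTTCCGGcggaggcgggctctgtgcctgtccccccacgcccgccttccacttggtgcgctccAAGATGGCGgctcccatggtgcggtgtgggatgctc
Mrps6: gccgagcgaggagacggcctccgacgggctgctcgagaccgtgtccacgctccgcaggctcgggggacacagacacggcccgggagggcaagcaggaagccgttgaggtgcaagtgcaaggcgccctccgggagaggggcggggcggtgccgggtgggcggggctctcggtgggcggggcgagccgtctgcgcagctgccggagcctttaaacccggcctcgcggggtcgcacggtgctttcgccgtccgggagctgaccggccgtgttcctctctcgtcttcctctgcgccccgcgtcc
Mrps7: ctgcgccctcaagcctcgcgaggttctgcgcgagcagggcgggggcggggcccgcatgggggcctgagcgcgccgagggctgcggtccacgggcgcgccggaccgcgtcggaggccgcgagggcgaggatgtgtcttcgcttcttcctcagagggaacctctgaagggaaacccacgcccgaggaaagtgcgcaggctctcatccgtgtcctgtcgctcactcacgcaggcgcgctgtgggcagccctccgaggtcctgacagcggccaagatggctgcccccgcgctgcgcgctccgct
Mrpl52: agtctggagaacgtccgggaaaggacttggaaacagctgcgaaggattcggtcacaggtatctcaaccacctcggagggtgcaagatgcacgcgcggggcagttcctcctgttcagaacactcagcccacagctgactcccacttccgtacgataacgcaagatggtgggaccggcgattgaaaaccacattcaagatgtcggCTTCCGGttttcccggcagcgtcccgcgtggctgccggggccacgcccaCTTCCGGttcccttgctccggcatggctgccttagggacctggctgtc

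Mrps27 held 1 ETS match and 1 YY1 match, and Mrpl52 held 2 ETS matches. The promoters of Mrpl10, Mrps6 and Mrps7 held none of the 3 motifs in this window. The 65 members had 71 promoters, since some had more than one, and shares are of promoters. The ETS motif was in 22 of the 71, which is 31.0% against 8.86% of all promoters searched. The NRF1 motif was in 13, 18.3% against 4.6% of all promoters, and the YY1 motif was in 9, 12.7% against 2.38%. The CCAAT box, a general promoter element, was in 40.8% of the member promoters and 37.4% of all. Of the member promoters, 1 (1.41%) held TAGGTCA, the core of the element that ROR receptors bind, against 2.61% of all promoters. Member promoters were richer in G and C, with a median of 58.3% against 52.7%, and the part of this in the motif shares was not tested. The ETS motif was in 15 of 46 members called lower in WT untreated skin than in LN, in 1 of 5 called higher and in 6 of 14 not called, and matches describe letters, not binding.

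Levels were compared between members per kb of exon, with lengths from GENCODE M21. The mean level over the 15 libraries ran from 3.33 to 228 CPM per kb, with a median of 29.2. Mrps6, a small-subunit protein with a bacterial counterpart, was highest, followed by Mrpl33, Mrps21, Mrpl4 and Mrpl54. The lowest was Mrpl47, and then Mrpl1, Mrpl48, Mrps35 and Mrps27 in rising order.

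Summed over the members, LN libraries held 4607, 4904 and 4028 CPM, and WT untreated skin held 2904, 3745 and 3256. In cKO untreated skin the sums were 3482, 2599 and 2808. The sums under MC903 were 3633, 3712 and 3334 in WT and 3635, 3660 and 3541 in cKO, with group means between those of untreated skin and LN. Every LN library was above every skin library. The skin groups overlapped, except that every cKO MC903 library, at 3541 or more, was above every cKO untreated library, at 3482 or less. Large-subunit transcripts summed to 1.91 to 2.17 times those of the small subunit in every library, and this ratio was 1.93 ± 0.0187 (SD, n = 3) in WT untreated skin, 2.03 ± 0.0168 in cKO untreated skin, 2.14 ± 0.0196 in WT MC903 skin, 2.14 ± 0.0361 in cKO MC903 skin and 2.08 ± 0.0731 in LN. The order of LN and untreated skin rested on Mrps6. Without it the ratio was 2.55 ± 0.0568 in WT untreated skin, 2.54 ± 0.0352 in cKO untreated skin, 2.63 ± 0.0701 in WT MC903 skin, 2.65 ± 0.0696 in cKO MC903 skin and 2.19 ± 0.0887 in LN, so that every skin library lay above every LN library and the untreated genotypes overlapped. LN had the highest group mean for 54 of the 74 members, and cKO untreated skin had the lowest for 45. The same counts were not taken over all genes, so no share stands beside them. No member was called lower in cKO than in WT untreated skin by edgeR. In bulk samples, fewer cells of a type and less RNA per cell cannot be told apart.

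**Figure D1:**
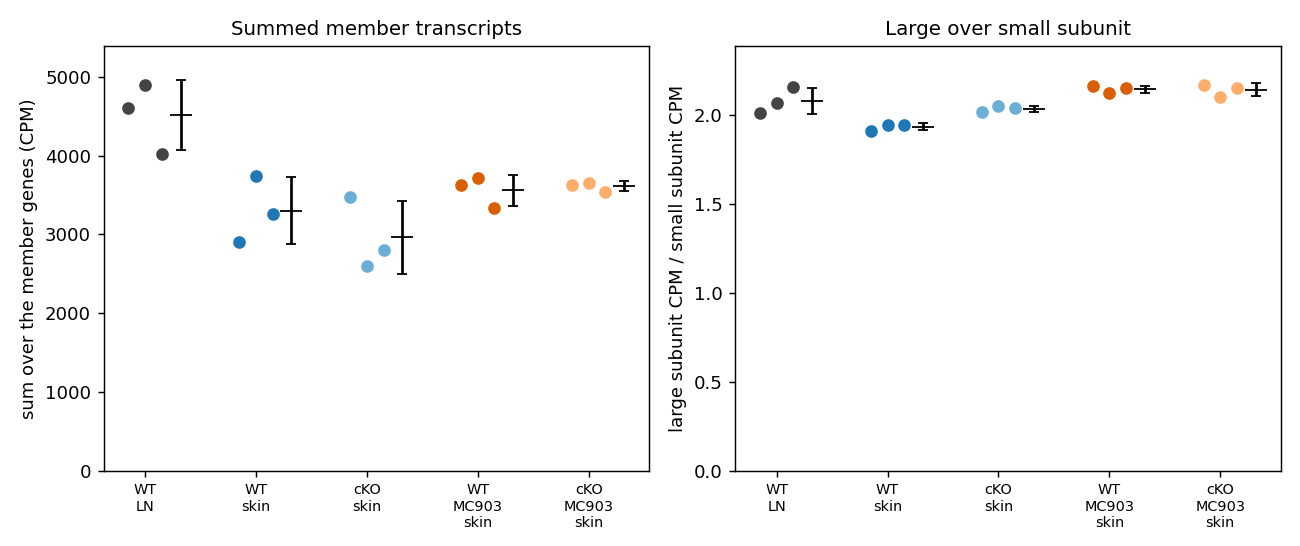
Left, CPM summed over the 74 member genes in each library; right, the large-subunit sum divided by the small-subunit sum, by group. Points are libraries and bars are mean ± SD (n = 3); the LN libraries, at 4028 to 4904 CPM, are above all skin libraries, which reach 3745.

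WT untreated skin was compared with WT LN to ask how Tregs of the tissue differ from those of LN, which the labels describe as draining skin. Most members were lower in skin. Of 74 members, 50 were called lower and 7 higher by edgeR's quasi-likelihood test at a Benjamini-Hochberg adjusted p under 0.05 over all genes tested, and among all genes 28.8% were called lower and 28.8% higher. The median log2 change was -0.69 over the members and 0.01 over all genes tested. All skin libraries were below all LN libraries for 51 members, where 33.4% of all genes were, and above them for 7, where 30.1% were. The fall ran through both subunits, with 33 of 49 large-subunit members lower and 5 higher, and 16 of 24 small-subunit members lower and 2 higher. Of the large-subunit members, 23 of 30 with a bacterial counterpart and 10 of 19 particular to mitochondria were lower. In the small subunit these were 10 of 15 and 6 of 9. Of the 50 calls, 28 were below -1 on the log2 scale and the smallest was a fall of 0.42.

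In the small subunit, Mrps35, a protein particular to mitochondria, had the largest fall of any member. It was at 49.3, 53.5 and 44.0 CPM in LN and at 9.22, 13.6 and 10.3 in WT untreated skin. The groups were far apart, and the fitted level in skin was 4.43-fold lower (log2 change -2.15 ± 0.23 SE, adjusted p = 1.13e-06 by edgeR). Mrps27, a pentatricopeptide repeat protein of the small subunit, was at 26.4, 26.7 and 23.1 CPM in LN and at 5.72, 6.63 and 8.94 in WT untreated skin. No skin library came near the LN range (log2 change -1.84 ± 0.31, adjusted p = 9.93e-05 by edgeR). An antisense RNA covers 22.6% of the exonic bases of Mrps27, and it was itself at 0 to 0.86 CPM in every library. Mrps2, a protein of the small subunit with a bacterial counterpart, was at 41.4, 42.9 and 34.1 CPM in LN and 14.4, 10.4 and 12.1 in skin, without overlap (log2 change -1.68 ± 0.25). Mrps10 fell by 1.61, Mrps5 by 1.55 and Mrps16 by 1.49 on the log2 scale, each of them also a protein with a bacterial counterpart. Mrps12, which sits at the decoding site, fell by 0.65 ± 0.23 (adjusted p = 0.0220 by edgeR), a call that held under 10 of 15 alternatives. Its groups overlapped, with 53.3, 55.8 and 42.1 CPM in LN and 20.8, 44.4 and 30.9 in skin.

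In the large subunit, Mrpl10, Mrpl11 and Mrpl12 build the stalk and its base, where translation factors dock, and they did not share one course. Mrpl10 was at 89.6, 96.2 and 83.3 CPM in LN and at 16.3, 22.2 and 26.8 in WT untreated skin. Its skin level was 4.12-fold lower with no overlap (log2 change -2.04 ± 0.17, adjusted p = 9.13e-08 by edgeR). Mrpl11 fell by 1.42 ± 0.23, from 44.3, 49.3 and 35.0 CPM to 12.8, 20.3 and 14.9. Mrpl12, the stalk protein itself, was at 82.6, 95.4 and 89.0 CPM in LN and at 70.0, 143 and 92.4 in skin. Its skin libraries lay on both sides of LN, and the difference missed the threshold (log2 change 0.20 ± 0.20, adjusted p = 0.421 by edgeR). That value changed sign without WT untreated skin replicate 2, the library at 143 CPM, to -0.14.

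Mrpl1, Mrpl39 and Mrpl52 also fell, by 1.55, 1.44 and 1.54 on the log2 scale. Mrpl52 was at 71.3, 72.5 and 56.2 CPM in LN and at 18.5, 25.9 and 24.2 in skin, with the groups well apart. Mrpl45, which holds the ribosome to the inner membrane, fell by 1.04 ± 0.15, and Mrpl27, near the peptidyl transferase centre, fell from 43.1 CPM or more in each LN library to 26.3 or less in each skin library. Mrps36, now known as a part of the 2-oxoglutarate dehydrogenase complex, fell by 0.64 ± 0.20, a call lost without WT untreated skin replicate 1. Mrps36, Mrpl23 and Mrpl48 have named pseudogenes, and how the authors' counting treated reads shared with such copies is not given in the sources used here.

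**Figure D2:**
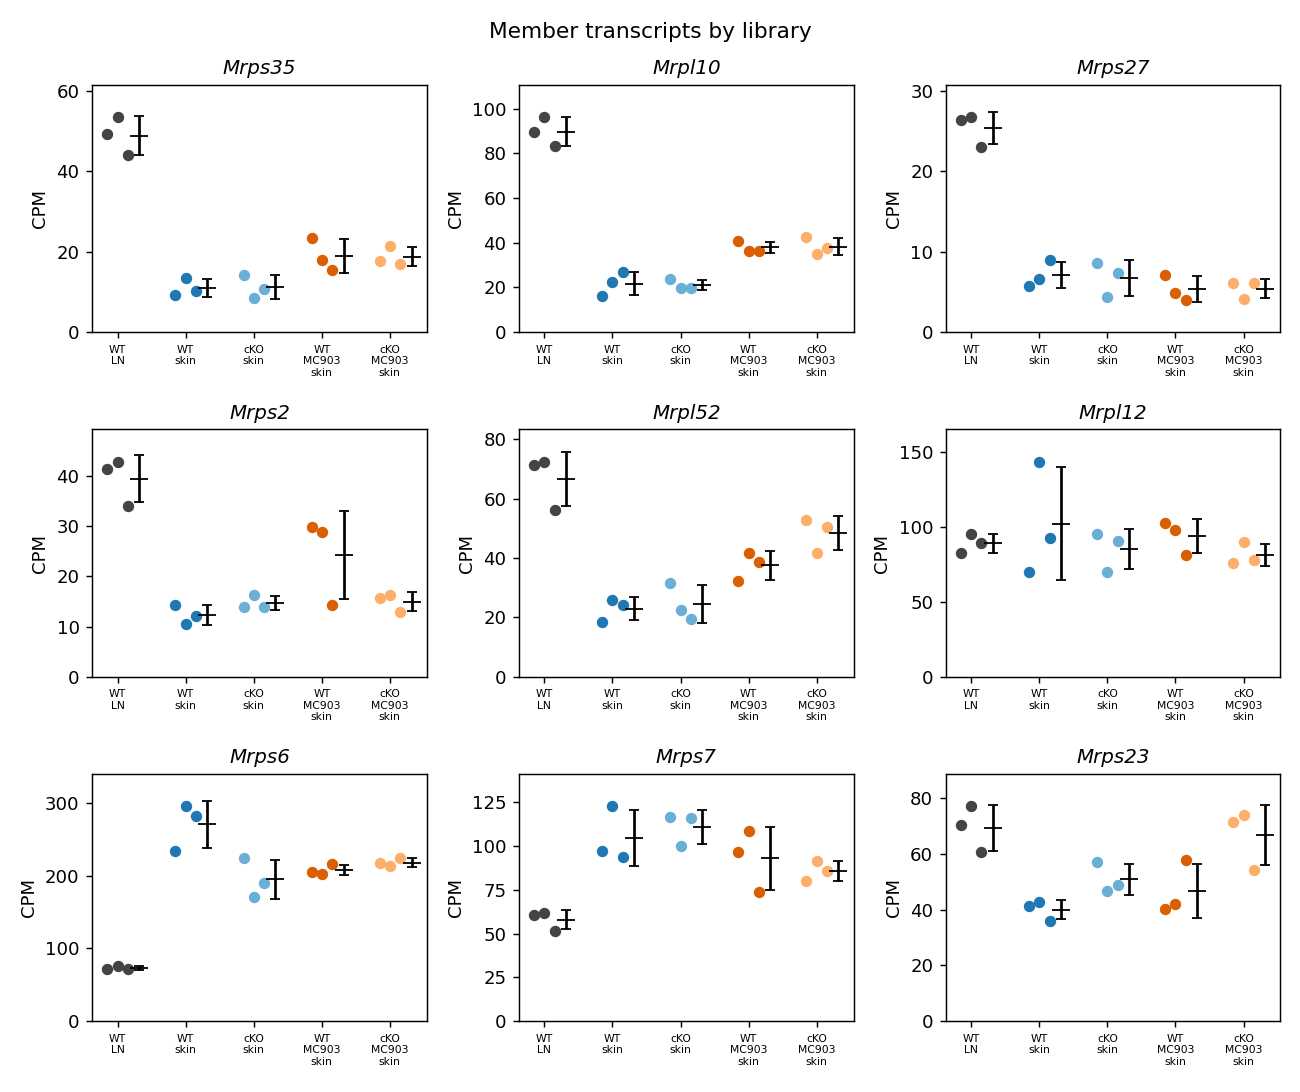
CPM of 9 members in each library, on linear axes from 0 with a scale for each gene. Points are libraries and bars are mean ± SD (n = 3); Mrps35, Mrpl10, Mrps27, Mrps2 and Mrpl52 are highest in LN, Mrps6 and Mrps7 are lowest there, and Mrpl12 overlaps between LN and WT skin.

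The 7 members called higher in skin were led by Mrps6. It was at 71.2, 76.2 and 71.4 CPM in LN and at 234, 295 and 282 in WT untreated skin. The ranges were far apart, and the fitted level was 3.70-fold higher (log2 change 1.89 ± 0.12, adjusted p = 3.78e-09 by edgeR). Mrps6 shares 18.8% of its exonic bases, on its own strand, with Slc5a3, the gene of a myo-inositol transporter. Slc5a3 was at 11.8, 9.04 and 24.0 CPM in LN and at 70.4, 69.8 and 93.0 in WT untreated skin, higher in every skin library as well, and its part in the Mrps6 counts was not tested. Mrps7, a small-subunit protein with a bacterial counterpart, was at 60.7, 61.6 and 51.7 CPM in LN and at 97.0, 123 and 93.5 in skin, without overlap (log2 change 0.85 ± 0.15, adjusted p = 0.000210 by edgeR). Mrps6 and Mrps7 were the 2 of the 7 whose call held under every alternative run.

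The other 5 were smaller. Mrpl43 rose by 0.62 ± 0.13 on the log2 scale, Mrpl32 by 0.55 ± 0.15, Mrps30 by 0.54 ± 0.22, Mrpl38 by 0.47 ± 0.18 and Mrpl4 by 0.33 ± 0.13. Despite its symbol, Mrps30 is a large-subunit protein. Mrpl43 shares 27.5% of its exonic bases with the opposite strand gene Twnk, the mitochondrial DNA helicase, which the table lists as Peo1 and which was lower in skin. When libraries were scaled by their total counts alone, 2 of 74 members were called higher and 59 lower. That scaling moved the median of all genes to -0.34 and the share of higher calls among all called genes from 49.99% to 34.8%, while the members' median stayed 0.71 below that of all genes (0.70 with the main scaling), and Mrpl4 turned to -0.03. Without the 4 libraries rich in transcripts of other cells, 50 members were called lower and 4 higher, with a median of -0.77, and 4 were likewise higher without WT untreated skin replicate 2, LN replicate 2 or LN replicate 3. Of the members, 6 share 20% or more of their exonic bases with another listed gene (Mrpl13, Mrpl19, Mrpl24, Mrpl43, Mrps25 and Mrps27), and without these and Mrps6, 46 were lower and 5 higher.

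**Figure D3:**
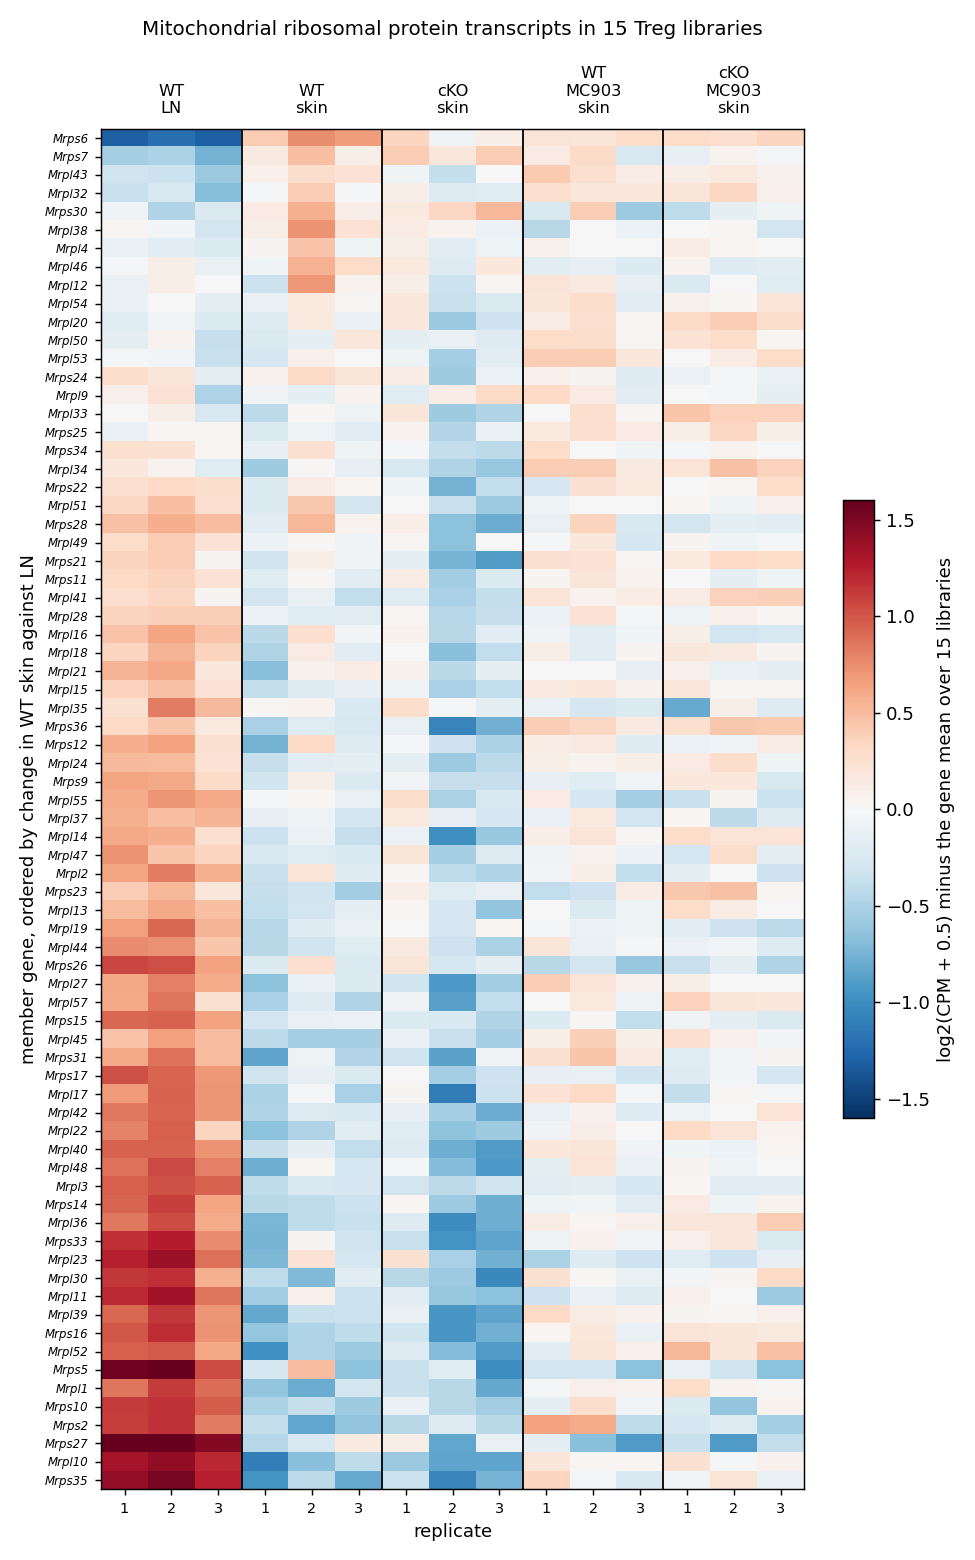
Each of the 74 members (rows, ordered by log2 change in WT untreated skin against LN, highest at the top) in each of 15 libraries (columns), as log2(CPM + 0.5) minus the gene's mean over the libraries; colours saturate at 1.6. Mrps6 and Mrps7, at the top, are lowest in LN, and most lower rows, down to Mrps35, are highest in LN.

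In the authors' deposited table of LN against skin, 50 members were higher in LN and 7 higher in skin at an adjusted p under 0.05, and these were the same members as above. Of all genes in that table, 27.9% were higher in LN and 29.1% higher in skin. Across the 74 members, the log2 change had a Spearman correlation of 0.55 with mean CPM and -0.26 with exonic length. This is a description across genes, which are not independent replicates, and mean CPM shares its libraries with the change.

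Genes induced by tissue digestion and stress, such as Fos, Jun and Hspa1a, moved with tissue and treatment. Their sum over 10 genes was 780 to 847 CPM in LN, 9968 to 16500 in WT untreated skin, 10664 to 13900 in cKO untreated skin, 5156 to 6098 in WT MC903 skin and 4638 to 5745 in cKO MC903 skin. Untreated skin, with the highest of these sums, had the lowest group means of summed member levels, and the part of digestion and stress in the results was not tested.

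The other genes of mitochondrial translation were taken from 6 lists. Among all genes tested, 28.8% were called lower in WT untreated skin than in LN and 28.8% higher. Of 9 further mitoribosome components, 8 were lower in WT untreated skin than in LN and none higher, among them Ict1 (log2 change -1.71 ± 0.21), a ribosome-rescue hydrolase, and Ptcd3 (-1.44 ± 0.18), a small-subunit protein. Of 15 translation factors, 13 were lower and none higher, with a median log2 change of -1.23. Gfm1, an elongation factor, fell by 1.41 ± 0.19 and Gfm2, a recycling factor, by 2.11 ± 0.25. Of 20 genes that charge mitochondrial tRNAs, 12 were lower and 1 higher. Rars2, the arginyl-tRNA synthetase, fell by 3.16 ± 0.36, and Lars2, the leucyl-tRNA synthetase, rose by 0.57 ± 0.16. Lars2 stood far above the rest of this list, at 467 to 1040 CPM over the libraries. No other gene of the list was above 78.2 CPM in any library. Of 23 assembly factors, 16 were lower, such as Mtg2 (-2.09 ± 0.26), a GTPase of the large subunit, and 2 were higher, Rbfa (0.96 ± 0.18) and Nsun4 (0.71 ± 0.16).

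Of 8 genes that act on mitochondrial DNA and its transcription, 5 (62.5%) were lower and 2 (25%) higher. Tfam, which packages and transcribes mitochondrial DNA, fell by 1.02 ± 0.15, and Polg2, a subunit of its polymerase, rose by 0.95 ± 0.19. Of 9 regulators of mitochondrial biogenesis, 3 (33.3%) were higher and 2 (22.2%) lower. These shares are near the 28.8% of all genes called in each direction. This list had a median of 0.15. Yy1 rose by 1.99 ± 0.18 and Gabpb1, a subunit of GABP, by 1.88 ± 0.14. Gabpa, another subunit of GABP, overlapped, at 47.1, 42.9 and 52.9 CPM in LN and 59.8, 35.6 and 53.4 in WT untreated skin. Myc fell by 1.44 ± 0.19, from 225 to 229 CPM in LN to 71.2 to 98.6 in WT untreated skin, without overlap.

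For comparison, 50 of 77 tested cytosolic ribosomal proteins (64.9%) were lower and 5 higher, with a median of -0.51. Of 77 subunits of oxidative phosphorylation, 31 (40.3%) were lower and 5 higher, with a median of -0.32. Among all genes 28.8% were called in each direction. These were set beside the members as values, and the difference between the lists was not tested.

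**Figure D4:**
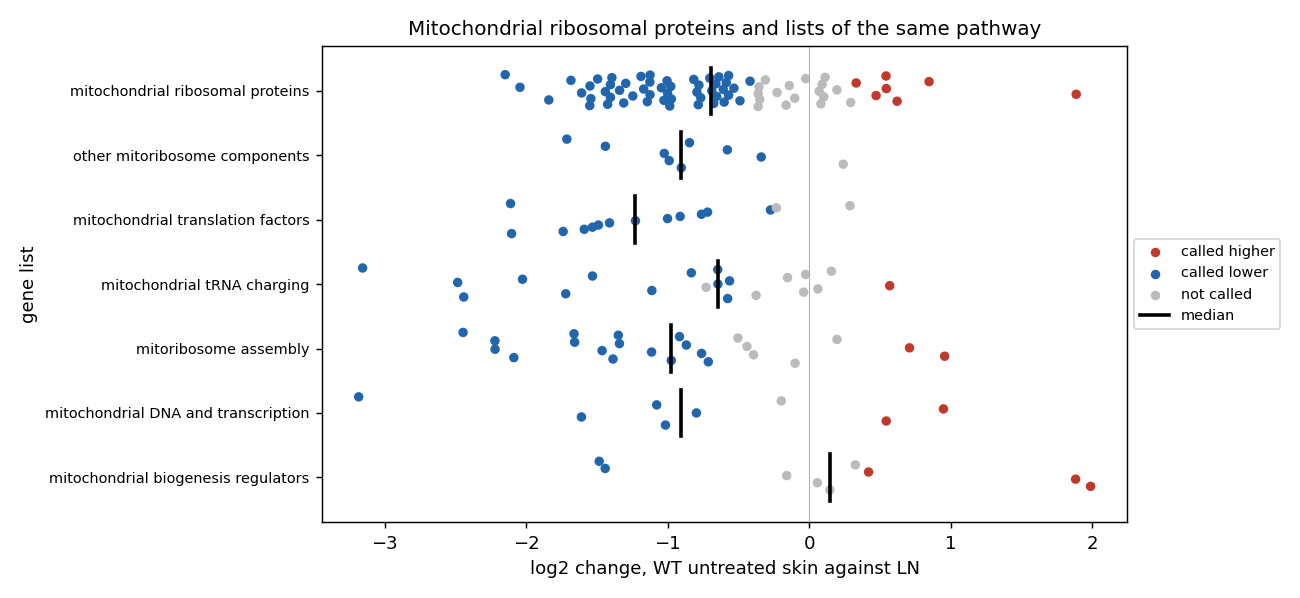
Log2 change in WT untreated skin against LN for each member and each gene of the 6 lists, one point per gene, coloured by call; vertical bars are list medians. The medians are -0.69 for the members and -1.23 for the translation factors, and only the regulators have a median above 0, at 0.15.

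WT MC903 skin, compared with the same LN libraries, also had lower members. In it 38 were called lower, where 24.5% of all genes were, and 5 higher, where 26.5% were, with a median log2 change of -0.54 against 0.02 for all genes. All skin libraries were below all LN libraries for 53 members, where 32.5% of all genes were, and above them for 8, where 30.4% were. All 38 were among the 50 lower in untreated skin, but both comparisons use the same LN libraries. Mrps27 had the largest fall, 2.25 ± 0.31, at 7.14, 4.87 and 4.04 CPM in WT MC903 skin. Mrps5 fell by 1.90 ± 0.30, Mrpl23 by 1.54 ± 0.26 and Mrps26 by 1.38 ± 0.18, and Mrpl10 fell by 1.24 ± 0.17. Mrps6 was at 204, 203 and 216 CPM and was again higher than in LN (log2 change 1.51 ± 0.12, adjusted p = 6.38e-08 by edgeR), and Mrps7 (0.68), Mrpl43 (0.68), Mrpl32 (0.63) and Mrpl53 (0.47) were higher too. Without the 4 libraries rich in transcripts of other cells, 32 were called lower and 4 higher, with a median of -0.51. Without members that share exons with another gene, among them Mrps6 and Mrpl43, 3 were called higher. Total-count scaling moved the median of all genes to -0.20, and the split of all calls from 51.9% to 39.0% higher, with 4 members higher and 52 lower.

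MC903 skin was compared with untreated skin in each genotype. In WT, 7 members were called higher and none lower, where 5.03% of all genes were called higher and 5.44% lower, and the median log2 change was 0.20 against 0.01 for all genes. By count, 9.46% of the members were called higher. All MC903 libraries were above all untreated libraries for 30 members, where 15% of all genes were, and below them for 4, where 13.2% were. Mrpl10 was at 40.9, 36.4 and 36.4 CPM under MC903 and at 16.3, 22.2 and 26.8 without it. The groups did not overlap (log2 change 0.80 ± 0.17, adjusted p = 0.00747 by edgeR). Mrps35 was at 23.5, 17.9 and 15.4 CPM under MC903 and at 9.22, 13.6 and 10.3 without it, also apart (0.78 ± 0.22, adjusted p = 0.0362 by edgeR). Mrps2 had the largest rise, 0.99 ± 0.24, but overlapped, since MC903 replicates 1 and 2 were at 29.9 and 28.9 CPM and replicate 3 was at 14.2. Mrps31 (0.73), Mrpl52 (0.72), Mrpl45 (0.70) and Mrpl1 (0.61) made up the rest.

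These WT calls were fragile. None of the 7 held under every alternative. Calls over all genes are given here only for total-count scaling. The counts below therefore do not set the members apart from other genes. When only the compared groups were fitted, 0 members were called higher, DESeq2 called 13 higher and 3 lower, and total-count scaling gave 16 higher and raised the share of higher calls among all genes from 48.1% to 72.5%. Leaving out WT MC903 replicate 1, 2 or 3 left 3, 2 and 4 higher, and leaving out WT untreated replicate 1 left 3 higher and 3 lower. Without that replicate the members' median was 0.12 against 0.03 for all genes, a gap of 0.09 in place of 0.18. Total-count scaling moved the median of all genes to 0.14, with the members' median 0.19 above it. Without the 4 libraries rich in transcripts of other cells, 7 were called higher, with a median of 0.24.

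In cKO mice, 20 members were called higher under MC903 and none lower, where 5.96% of all genes were called higher and 5.3% lower. This was 27.0% of the members, and their median log2 change was 0.30 against -0.01 for all genes. All MC903 libraries were above all untreated ones for 31 members, where 17.4% of all genes were, and below them for 2, where 16% were. Of the 20, 15 were in the large subunit, 4 in the small subunit, and Mrps36 was the other. Mrpl52 had the largest rise. It was at 53.0, 41.8 and 50.5 CPM under MC903 and at 31.6, 22.3 and 19.3 without it, with no overlap (log2 change 0.99 ± 0.20, adjusted p = 0.00531 by edgeR).

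Mrps36 was at 45.4, 51.3 and 51.1 CPM under MC903 and at 35.0, 18.1 and 22.0 without it, again apart (0.98 ± 0.20, adjusted p = 0.00646 by edgeR). Mrpl36, a large-subunit protein with a bacterial counterpart, rose by 0.89 ± 0.19 and Mrpl10 by 0.87 ± 0.17. Mrpl10 was at 42.4, 35.0 and 37.5 CPM under MC903 and at 23.6, 19.7 and 19.6 without it, so the ranges did not meet. Mrps16 rose by 0.85 ± 0.17 and Mrpl27 by 0.62 ± 0.18. Of the 20 calls, 6 held under every alternative: Mrpl10, Mrpl34, Mrpl41, Mrpl52, Mrps16 and Mrps36. For the counts that follow, calls over all genes are given only for total-count scaling, so they do not set the members apart. With only the compared groups 11 were called higher and 1 lower. Leaving out cKO untreated replicate 1 gave 30, leaving out its replicate 2 or 3 left 6 each, and leaving out cKO MC903 replicate 1, 2 or 3 left 9, 8 and 9. Without the 4 libraries rich in transcripts of other cells, 27 were called higher, with a median of 0.44. The split of calls among all genes moved from 52.9% to 62.2% higher with total-count scaling, where 23 members were called higher.

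Called in both genotypes were Mrpl1, Mrpl10, Mrpl52 and Mrps35, which is 4 of the 7 and 4 of the 20. The 50 members lower in WT untreated skin than in LN made up 67.6% of the 74. They included all 7 called higher under MC903 in WT and 16 of the 20 in cKO. The WT comparisons share the untreated WT libraries. Few genes of the pathway lists were called under MC903. Myc rose by 0.92 ± 0.19 in WT. In cKO, Slirp, an RNA-binding partner of Lrpprc, rose by 0.66 ± 0.20, Mrps18b, a mitoribosome component, fell by 0.59 ± 0.17, and Pprc1, a coactivator of biogenesis, fell by 0.91 ± 0.24. Of 77 cytosolic ribosomal proteins, 1 (1.30%) was called higher in WT and 29 (37.7%) in cKO. Of 77 oxidative phosphorylation subunits, 4 (5.19%) and 33 (42.9%) were. Among all genes tested the shares were 5.03% in WT and 5.96% in cKO.

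**Figure D5:**
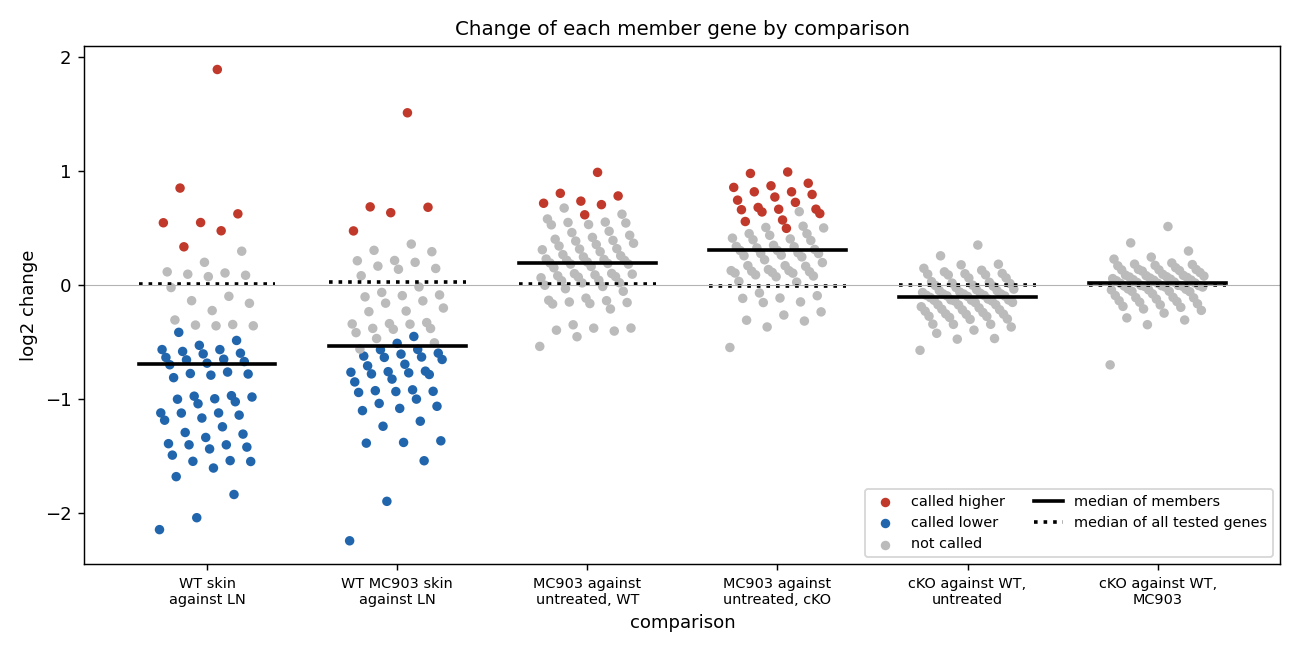
Log2 change of each of the 74 members in 6 comparisons; red and blue points were called higher and lower at an adjusted p under 0.05 by edgeR, solid bars are member medians and dotted bars medians of all tested genes. The member medians are -0.69 and -0.54 against LN, 0.20 and 0.30 for MC903, and -0.11 and 0.01 for genotype.

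cKO was compared with WT to ask whether Rora in Tregs bears on the members. No member was called in either skin condition by edgeR. In untreated skin 0 of 74 were called, where 0.398% of all genes were called higher and 0.405% lower. At an unadjusted p under 0.05 none was higher and 4 were lower. All genes were not counted at that threshold, so no share stands beside these counts. DESeq2 called 1 lower, as did edgeR without WT replicate 1 or without cKO replicate 1. Log2 changes ran from -0.58 to 0.35, with a median of -0.11 against -0.0049 for all genes tested. The median was -0.23 for the cytosolic ribosomal proteins and -0.22 for the oxidative phosphorylation subunits. Single libraries moved the members' median. It was -0.28 without cKO untreated replicate 1, with or without the other 3 libraries rich in transcripts of other cells, and -0.21 without WT untreated replicate 1. It was -0.012 without cKO untreated replicate 2, -0.065 without its replicate 3 and -0.022 without WT untreated replicate 2. No member was called without the 4 libraries. Mrps6 had the smallest p. It was at 234, 295 and 282 CPM in WT and at 224, 170 and 190 in cKO, and the groups did not overlap (log2 change -0.47 ± 0.12, adjusted p = 0.0802 by edgeR, 0.0113 to 0.386 over the alternatives). All cKO libraries were above all WT libraries for 1 member, where 7.37% of all genes were, and below them for 2, where 6.22% were.

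In MC903 skin 0 of 74 were called by edgeR and 0 by DESeq2, where 0.081% of all genes were called higher and 0.177% lower by edgeR. At an unadjusted p under 0.05, 1 member was higher and 1 lower, again with no share of all genes at that threshold. The median log2 change was 0.01, and without the 4 libraries it was -0.01 and 0 members were called. All cKO libraries were above all WT libraries for 6 members, where 7.81% of all genes were, and below them for 3, where 8.19% were. Mrps23, a small-subunit protein particular to mitochondria, had the smallest p and was at 40.4, 42.2 and 57.9 CPM in WT and at 71.7, 74.1 and 54.4 in cKO. WT replicate 3 lay above cKO replicate 3, so the groups overlapped (log2 change 0.51 ± 0.17, adjusted p = 0.411 by edgeR). Averaged over treatments, Mrps23 differed by 0.43 ± 0.12 (adjusted p = 0.0992 by edgeR, 0.0277 to 0.238 over the alternatives), and 0 members were called, where 0.884% of all genes were called higher and 0.862% lower. At an unadjusted p under 0.05, 1 was higher and 3 lower in that average, also with no such share. DESeq2 called 1 higher, as did edgeR without WT MC903 replicate 3 or without the 4 libraries. A change that misses the threshold with 3 libraries a group does not show that the genotypes are alike.

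The interaction asked whether the MC903 response differed between genotypes. No member was called by edgeR or DESeq2, and 0% of all genes were called higher and 0% lower by edgeR. The median log2 difference was 0.15 over the members against -0.0060 for all genes tested. Of the members, 23.0% were below 0, where 50.6% of all genes were, and this lean was not tested. It was not particular to the members. Of the cytosolic ribosomal proteins 1.30% were below 0 (median 0.30), and of the oxidative phosphorylation subunits 13.0% (median 0.32). At an unadjusted p under 0.05, 2 members were higher and 1 lower, with no share of all genes at that threshold beside them. The one lower was Mrps2 (log2 difference -0.96 ± 0.34, adjusted p = 0.866 by edgeR), named after its values were seen. Its level was 15.6, 16.4 and 12.8 CPM in cKO MC903 skin and 13.8, 16.3 and 13.9 in cKO untreated skin, a log2 change of 0.03 ± 0.24. The 2 higher were Mrps21 (0.56 ± 0.25), also named after the fact, and Mrps6 (0.54 ± 0.17, adjusted p = 0.866 by edgeR), which had the smallest p. The counts of 7 and 20 members called under MC903 in WT and cKO are therefore not shown to differ.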

How the data were processed

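RNA of sorted Tregs was amplified with a SMART-Seq v4 kit and sequenced as single-end reads of 75 bp, per the labels' protocols. The submitters' processing notes name TopHat2 2.0.6, mm9 and DESeq2. The read counter and annotation are not given in the sources used here. The authors deposited whole-number counts per gene and library. They also deposited a table of LN against skin with a log2 fold change and an adjusted p-value, per the file headers.

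The counts were fitted in R 4.3.3 with edgeR 4.0.16. Of 24015 genes, 13578 passed filterByExpr with the 5 groups. TMM factors were 0.903 to 1.26, and 1 robust quasi-likelihood model over all 15 libraries gave every comparison, with p-values adjusted by Benjamini-Hochberg over the 13578 genes. CPM are counts per M of the scaled library size, and 0.5 was added before taking log2 for the heat map. Totals of 19.8 to 27.7 M counts limit precision to counting and library spread, and PCR copies of a molecule could not be told apart. The pipeline was tested on simulated data.

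The members, lists and tests were chosen with earlier results of these data known. The rule for naming took Mrpl12, Mrpl10, Mrpl11, Mrps12, Mrpl27, Mrpl45, Mrps30 and Mrps36 in every comparison. It added the 10 called members with the largest change in each direction for WT untreated skin against LN, and 5 elsewhere, or the 1 with the smallest p where none was called. It also took the 5 highest and 5 lowest members per kb, up to 2 called genes per list and direction, and the 5 other genes most like the members, of which 1 is not reported here. After the alternatives were run, it was decided to give the 8 fixed members as a range outside WT untreated skin against LN where they were not called. Mrps2 and Mrps21 were added to the interaction after their values were seen. Mrpl57 was counted as a member only, not also in its list.

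Alternatives were relative log expression factors, total-count scaling, no filter, a filter of 50 counts in 3 libraries, DESeq2 1.42.0, limma 3.58.1 voom with sample weights, only the compared groups, the replicate number as a block, and each library left out. Chosen after seeing the data were runs without 4 libraries rich in other cells' transcripts and without members that share 20% or more of their exonic bases with another gene, or Mrps6, and the ratio of the subunits without Mrps6.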

Additional observations from a re-analysis of the deposited data

How the results depend on the processing

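Members called lower in WT untreated skin numbered 44 to 51 and in WT MC903 skin 32 to 38 when single libraries were left out, 59 and 52 with total-count scaling and 53 and 50 with limma-voom, and 42 of 50 and 30 of 38 calls held under every alternative. Of the calls higher, 2 of 7 and 4 of 5 held. For untreated skin, those called higher numbered 2 with total-count scaling, 4 with limma-voom, 4 without the 4 libraries rich in transcripts of other cells, and 4 to 7 with single libraries left out. For MC903 skin they numbered 4 to 6 with single libraries left out and 3 without members that share exons. In WT under MC903, 16 members were higher with total-count scaling, 13 with DESeq2, 0 with only the compared groups and 2 to 6 with single libraries left out. There, 1 was lower with relative log expression scaling, 1 with the strict filter, 3 with DESeq2 and 0 to 3 with single libraries left out. In cKO under MC903, 11 were higher and 1 lower with only the compared groups, and 6 to 30 were higher with single libraries left out. For genotype in untreated skin, DESeq2 called 1 lower and 0 to 1 were lower with single libraries left out. For the averaged genotype effect, 1 was higher with DESeq2, 1 without the 4 libraries, and 0 to 1 with single libraries left out. Shares of all genes called under the same settings do not stand beside these counts, so the shifts are not read as particular to the members. The causes of these shifts were not tested.

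Log2 changes of named members that changed sign were those of Mrpl12 in untreated skin against LN (-0.17 with total-count scaling, and -0.14 to 0.40 with single libraries left out, the lowest without WT untreated skin replicate 2), Mrpl4 there (-0.027 with total-count scaling), and Mrps2 under MC903 in cKO, near 0 throughout (-0.041 to 0.13 with single libraries left out). The 8 fixed members gave 48 further values outside untreated skin against LN that were not called, from -0.55 to 0.62 on the log2 scale. In 816 refits of these, the sign turned 70 times, for 27 of the 48 values, and 17 refits called one.

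Replicate numbers showed no sign of pairing the libraries, which does not show that the samples were unpaired. Deviations from the group mean correlated at -0.26 to 0.13 (median -0.0043) between same-numbered libraries of different groups. Between other-numbered libraries they correlated at -0.15 to 0.19 (median 0.012). With the replicate block, 49 members were lower and 6 higher in untreated skin against LN, 35 and 5 in MC903 skin against LN, 5 higher in WT and 14 in cKO under MC903, and 0 were called for genotype or the interaction.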

Other observations

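Over the 15 libraries, the other genes whose log2 CPM followed the mean of the members' standardised log2 CPM most closely included Rpl12 and Rps18, both cytosolic ribosomal proteins, Polr2f, a subunit shared by the RNA polymerases, and Eif3m, a subunit of a translation initiation factor. Pearson's r was 0.97 for Rpl12, Rps18 and Polr2f and 0.96 for Eif3m. The values share library scaling and depth and are given as a description. Rpl12 was at 364, 380 and 287 CPM in LN and at 179, 239 and 217 in WT untreated skin, without overlap. Against the same mean, which they are part of, Mrps6 (-0.63) and Mrps7 (-0.62) had the lowest r among the members.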
